A study of Solanum lycopersicum with 24 samples.

Results

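The genotype by salt interaction in tomato leaves was examined, that is, for each transcript, how far the change with salt in the *res* mutant departed from the change in its wild type (WT), the cultivar Moneymaker from which the mutant derives. It was computed per probe set as (*res* salt minus *res* control) minus (WT salt minus WT control) on the log2 scale, from the 12 leaflet arrays among the 24 arrays of the series, the remainder being roots. The groups were WT control, WT salt, *res* control and *res* salt, with 3 arrays each, all of six-week old plants in hydroponic culture. Salt was 200 mM NaCl for 5 days, with a lower concentration on the first day. Each array carried the combined RNA of 3 plants, which makes the 3 arrays of a group biological replicates whose number limits the precision. Leaflets were those of the first fully expanded leaf. Control leaflets were collected before salt was given, so salt and 5 days of growth cannot be told apart in either genotype, and the interaction also holds any difference in how the genotypes changed over those days. The mutant is one recessive line that is chlorotic and stunted without stress and recovers its appearance in salt. The study chose 5 days as the time at which this recovery had only begun to show.

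A positive interaction means that a transcript changed more upwards in *res* than in WT, and it can arise in several ways: *res* rises, WT falls, both move apart, or both move in 1 direction by different amounts. For this reason each called gene below is given with the genotype that moved. Leaves under salinity are known to accumulate abscisic acid (ABA), to slow growth and photosynthesis and to raise dehydration proteins, whereas jasmonate, the hormone of wounding, drives a separate set of defence proteins in tomato leaves, among them protease inhibitors and enzymes that act in the gut of insects. Ethylene, calcium and mitogen-activated protein (MAP) kinases relay many of the early signals.

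WT control replicate 1 stood apart from the other arrays: 2494 probe sets differed more than 2-fold from the average of both other WT controls, against 782 and 1054 for replicates 2 and 3 and between 68 and 239 in the remaining leaf groups. Since WT control enters every interaction, values are given with and without this array. In the 2792 probe sets called below, replicate 1 was shifted towards the WT salt mean in 2124 (76.1%), by a median of 0.4 on the log2 scale. The 11 leaf markers (light-harvesting, Rubisco and photosystem genes) were all higher in every leaf array than in every root array, with array means of 8.99 to 9.58 in leaves and 2.84 to 4.17 in roots. Of 6 genes taken as root markers only 2 were higher in every root array, so that list is a poor check. Its mean over arrays was 3.16 in WT control, 3.69 in WT salt, 3.03 in *res* control and 2.95 in *res* salt leaves, and 2 of its members, *RSI-1* and *EXP5*, had a called negative interaction, and the part of such cells in the results was not tested.

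A probe set was called (a DEG for the interaction) where the interaction was at least 2-fold and its adjusted p, corrected across the 67795 probe sets, was under 0.05. There were 2792 such DEGs (4.12% of the probe sets), 1125 with a positive and 1667 with a negative interaction, and the median over all probe sets was 0.01. Without WT control replicate 1 there were 4569, of which 2717 were also called with it and with the same sign, and 75 were lost. Interactions ran from -7.25 to 8.35. Gene symbols other than LOC numbers were available for 894 genes, and 137 of these were called (15.3%), 65 positive (7.27%) and 72 negative (8.05%). These shares are the background for the gene groups below. Of the 137 genes, 134 were also called without WT control replicate 1, the exceptions being *HSP70*, *JA2* and *nii1*. The files hold no detection calls, and array medians ran from 1.84 to 2.17. For 16 of the called genes named below (*AADC1A*, *ACS1A*, *ADH2*, *ARG2*, *CO1*, *Dea1*, *GA2ox3*, *GLK2*, *Glb1*, *IPT4*, *PIIF*, *RSI-1*, *TSI-1*, *TSW12*, *XTH9* and *tXET-B2*) at least 1 group mean lay below the median of each of its arrays, and folds and interactions that involve such a group are values on the array scale that may rest on a floor.

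The genotype that moved was mainly WT. Salt effects within each genotype were called by the same rule, which gave 4733 DEGs in WT (6.98%) and 2306 in *res* (3.4%). Among the 894 genes the shares were 23.2% in WT (14.3% raised, 8.84% lowered) and 14.7% in *res* (8.28% raised, 6.38% lowered), and *res* differed from WT in 15.1% in control (4.81% higher, 10.3% lower) and in 15.8% in salt (4.47% higher, 11.3% lower). Of the 2792 interaction DEGs, 1581 (56.6%) had a called change in WT and none in *res*, 392 (14%) in *res* and none in WT, 292 (10.5%) in both genotypes in 1 direction, 88 (3.15%) in opposite directions and 439 (15.7%) in neither genotype alone. Where both changed in 1 direction, WT changed more in 267 and *res* in 25. A change that was not called may still be present below the thresholds. The change in WT was the larger in absolute size in 2172 DEGs (77.8%), and in 74.5% without WT control replicate 1. Opposite changes were the rarest class, with a median size of 3.39 on the log2 scale, which the definition of the class holds above 2, and their number reached 230 without WT control replicate 1.

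**Figure D1:**
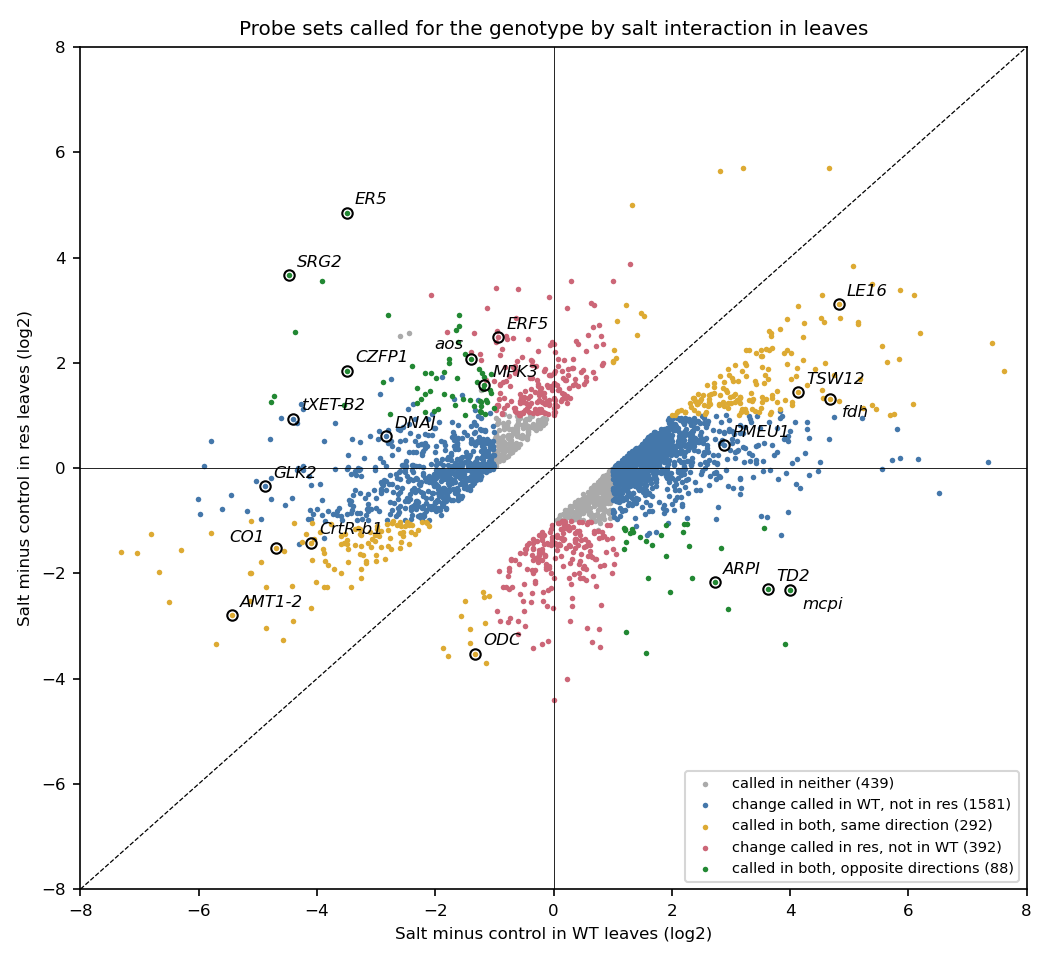
Change with salt in WT leaves (x axis, log2) against the change in *res* leaves (y axis, log2) for the 2792 probe sets called for the interaction, each from means of 3 arrays per group and coloured by the genotype in which the change itself was called. Points above the dashed line of equal change have a positive interaction. The 1581 probe sets called in WT alone lie along the horizontal axis, and *ER5* and *SRG2* stand far into the upper left quadrant, where WT fell and *res* rose.

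Whether the interaction brought the genotypes together or apart was read from *res* minus WT in each condition. Called differences between genotypes were present in salt alone in 1022 DEGs (36.6%), in control alone in 797 (28.5%), in both with the same sign in 101, in both with opposite sign in 136 and in neither in 736. The mean difference between genotypes was larger in salt than in control in 1547 DEGs (55.4%) but in 45.3% of those found without WT control replicate 1, so which of these patterns was the more frequent turned with that array. The sign of genotype differences also depended on scaling: *res* was lower in 2177 of 2960 DEGs in salt as deposited (26.5% higher) and in 1265 of 2418 after quantile normalization within leaves (47.7% higher), which moved the median of all probe sets from -0.11 to 0. In control the share that was higher in *res* went from 33.6% to 48.7%, and that of DEGs raised by salt in WT from 65.3% to 54.9%. For the interaction itself, 40.3% and 47.6% were positive.

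**Figure D2:**
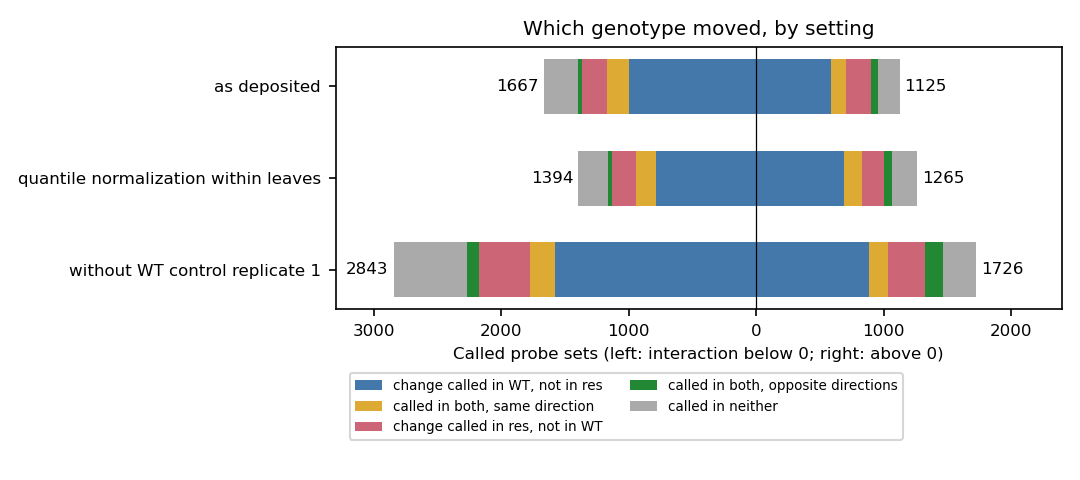
Numbers of probe sets called for the interaction (x axis, negative interactions to the left of 0 and positive ones to the right), split by the genotype in which the salt change was called, for the deposited values, after quantile normalization within leaves and without WT control replicate 1. WT alone is the largest class in all 3 settings, and the total grows from 2792 to 4569 without that array.

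Genes that moved in opposite directions included the largest interactions among named genes. *ER5* read 8.86, 8.21 and 8.23 in WT control, 5.18, 4.93 and 4.7 in WT salt, 4.08, 3.76 and 3.78 in *res* control and 8.76, 8.74 and 8.66 in *res* salt. *ER5* responds to ethylene and resembles late embryogenesis abundant proteins, which protect cells in drying tissue. Control and salt arrays did not overlap in either genotype, *res* salt lay within the range of WT control, and it fell 11.3-fold in WT and rose 28.8-fold in *res*, an interaction of 8.35 ± 0.25 (adjusted p = 2.66e-09, 8.13 without WT control replicate 1). *SRG2*, known here by its symbol only, read 6.09, 9.29 and 9.21 in WT control, 3.73, 3.71 and 3.72 in WT salt, 2.55, 2.86 and 2.76 in *res* control and 6.32, 6.42 and 6.45 in *res* salt, an interaction of 8.15 ± 0.87 (adjusted p = 8.9e-05, 9.2 without WT control replicate 1). WT control replicate 1 lay far below its group here, under every *res* salt array, yet above every WT salt array. *CZFP1* read 5.5, 8.23 and 8.28 in WT control, 3.7, 3.87 and 3.97 in WT salt, 3.23, 3.78 and 3.41 in *res* control and 5.21, 5.32 and 5.42 in *res* salt, again with replicate 1 low in WT control, and the interaction was 5.33 ± 0.77 (adjusted p = 0.000924, 6.25 without WT control replicate 1).

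Further genes of this class act in early stress signalling. *aos*, the allene oxide synthase at the entry to jasmonate synthesis, read 5.79, 6.21 and 6.35 in WT control, 4.76, 4.81 and 4.61 in WT salt, 3.4, 3.43 and 3.82 in *res* control and 5.51, 5.96 and 5.38 in *res* salt. No arrays overlapped between control and salt in either genotype, and *aos* fell 2.62-fold in WT and rose 4.19-fold in *res* (interaction 3.46 ± 0.26, adjusted p = 4.56e-06). *MPK3*, a MAP kinase that responds to wounding and other stresses, read 6.63, 8.14 and 8.15 in WT control, 6.59, 6.47 and 6.35 in WT salt, 5.13, 5.12 and 5.38 in *res* control and 6.8, 6.89 and 6.67 in *res* salt. The WT control array of replicate 1 was level with WT salt here, and the interaction was 2.74 ± 0.44 (adjusted p = 0.00187, 3.25 without WT control replicate 1). The calmodulin gene *CaM2*, a calcium sensor, had 6.06, 7.46 and 6.95 in WT control, 5.77, 5.65 and 5.43 in WT salt, 4.31, 4.44 and 4.35 in *res* control and 6.05, 6.18 and 6.27 in *res* salt, and its interaction was 3.01 ± 0.36 (adjusted p = 0.00024, 3.39 without WT control replicate 1). In all 6 genes of this pattern every *res* control array lay below every WT control array, and every *res* salt array above every WT salt array.

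The mirror image, a fall in *res* and a rise in WT, was seen in wound-induced defence proteins. Of the 12 measured members of that list 7 had a called negative interaction and none a positive one, and the median interaction was -2.16, beside 0.01 for all probe sets and -0.08 for the 894 genes. Without WT control replicate 1 the list had 8 negative calls and 1 positive call. By *res* minus WT, 7 members were higher and 1 lower in control leaves (3.92% of all probe sets were called for this difference), and 2 were higher and 1 lower in salt (4.37%). *mcpi*, the metallocarboxypeptidase inhibitor, read 4.18, 2.65 and 2.45 in WT control, 7.19, 7.03 and 7.03 in WT salt, 10.89, 10.96 and 11 in *res* control and 8.61, 8.56 and 8.73 in *res* salt. It fell 4.99-fold in *res* and rose 15.9-fold in WT without the genotypes meeting, and its interaction was -6.31 ± 0.46 (adjusted p = 4.52e-06, -6.86 without WT control replicate 1). *TD2*, a threonine deaminase that removes threonine in the insect gut, read 5.56, 2.86 and 3.35 in WT control, 7.58, 7.48 and 7.58 in WT salt, 10.65, 10.51 and 10.55 in *res* control and 8.26, 8.31 and 8.24 in *res* salt, with WT control replicate 1 nearest to salt. It fell 4.92-fold in *res* and rose 12.3-fold in WT (interaction -5.92 ± 0.69, adjusted p = 0.000177, -6.74 without WT control replicate 1).

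In other members the genotypes met or changed places in salt. *LAPA1*, a leucine aminopeptidase, read 3.54, 3.18 and 2.99 in WT control, 5.07, 5.11 and 5.44 in WT salt, 7.09, 7.37 and 7.41 in *res* control and 4.68, 5.08 and 5.06 in *res* salt. Salt arrays of the genotypes overlapped while control arrays lay far apart, and the interaction was -4.33 ± 0.23 (adjusted p = 3.9e-07, -4.48 without WT control replicate 1). *ARPI* read 7.73, 5.53 and 5.92 in WT control, 9.23, 9.13 and 9 in WT salt, 10.98, 10.76 and 10.93 in *res* control and 8.84, 8.54 and 8.8 in *res* salt, so that WT was the higher genotype in salt, and its interaction was -4.89 ± 0.57 (adjusted p = 0.000187, -5.56 without WT control replicate 1). *ARG2*, an arginase that breaks down arginine, fell from a mean of 6.28 to 5.19 in *res* and rose from 1.73 to 3.63 in WT, staying above WT throughout (interaction -2.99 ± 0.4, adjusted p = 0.000532). A polyphenol oxidase, LOC101259064, fell 8.64-fold in *res* to below every WT array and rose 2.33-fold in WT (interaction -4.33 ± 0.37, adjusted p = 1.55e-05). The remaining called member, the protease inhibitor *PIIF*, had an interaction of -1.33 ± 0.32, adjusted p = 0.0253, with changes of -0.82 in *res* and 0.51 in WT, neither called, and it kept the call in 4 of the 12 fits with 1 array left out (those without WT control replicate 1 or 2, WT salt replicate 2 or *res* control replicate 1). *LAPA2*, *ARG1*, *cevi57*, *twi1* and a further polyphenol oxidase, LOC101259357, were not called, with values from -0.17 to 0.96.

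The sesquiterpene synthase *TPS12*, which acts in glandular trichomes, had the same pattern. *TPS12* read 4.72, 3.38 and 3.74 in WT control, 5, 5.9 and 5.94 in WT salt, 7.22, 6.64 and 6.71 in *res* control and 5.21, 5.13 and 5.84 in *res* salt, an interaction of -3.13 ± 0.48 (adjusted p = 0.00154, -3.51 without WT control replicate 1). It was the 1 called member of 5 trichome markers. The mean of those 5 genes per array was 2.09 to 3 in WT control, 2.33 to 2.56 in WT salt, 2.7 to 2.95 in *res* control and 2.13 to 2.37 in *res* salt, and the part of trichome number in the wound genes was not tested. In bulk leaflets fewer cells of a type and less RNA per cell cannot be told apart.

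Enzymes of jasmonate synthesis did not share 1 direction. Of 10 measured, *aos* and *loxD*, a lipoxygenase of the same pathway, were called positive, 7 of the 10 values were below 0 and the median was -0.31. *loxD* read 7.12, 7.57 and 7.72 in WT control, 7.15, 7.19 and 7.2 in WT salt, 7.26, 7.54 and 7.52 in *res* control and 8.18, 8.26 and 8.09 in *res* salt, high in *res* salt only (interaction 1.02 ± 0.2, adjusted p = 0.0078). That call was lost in 4 of the 12 fits that left out 1 array (WT control replicate 2 or 3, *res* control replicate 1 or *res* salt replicate 2), and without any of these the list had 1 call. The lipoxygenases *LOX1.1* and *loxC*, which are not of the jasmonate route, fell in *res* by 2.42-fold and 2.03-fold and had changes of 0.44 and 0.58 in WT, not called (interactions -1.71 and -1.6). The *loxC* call was lost without WT salt replicate 1, *res* control replicate 1 or *res* salt replicate 1 or 2.

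**Figure D3:**
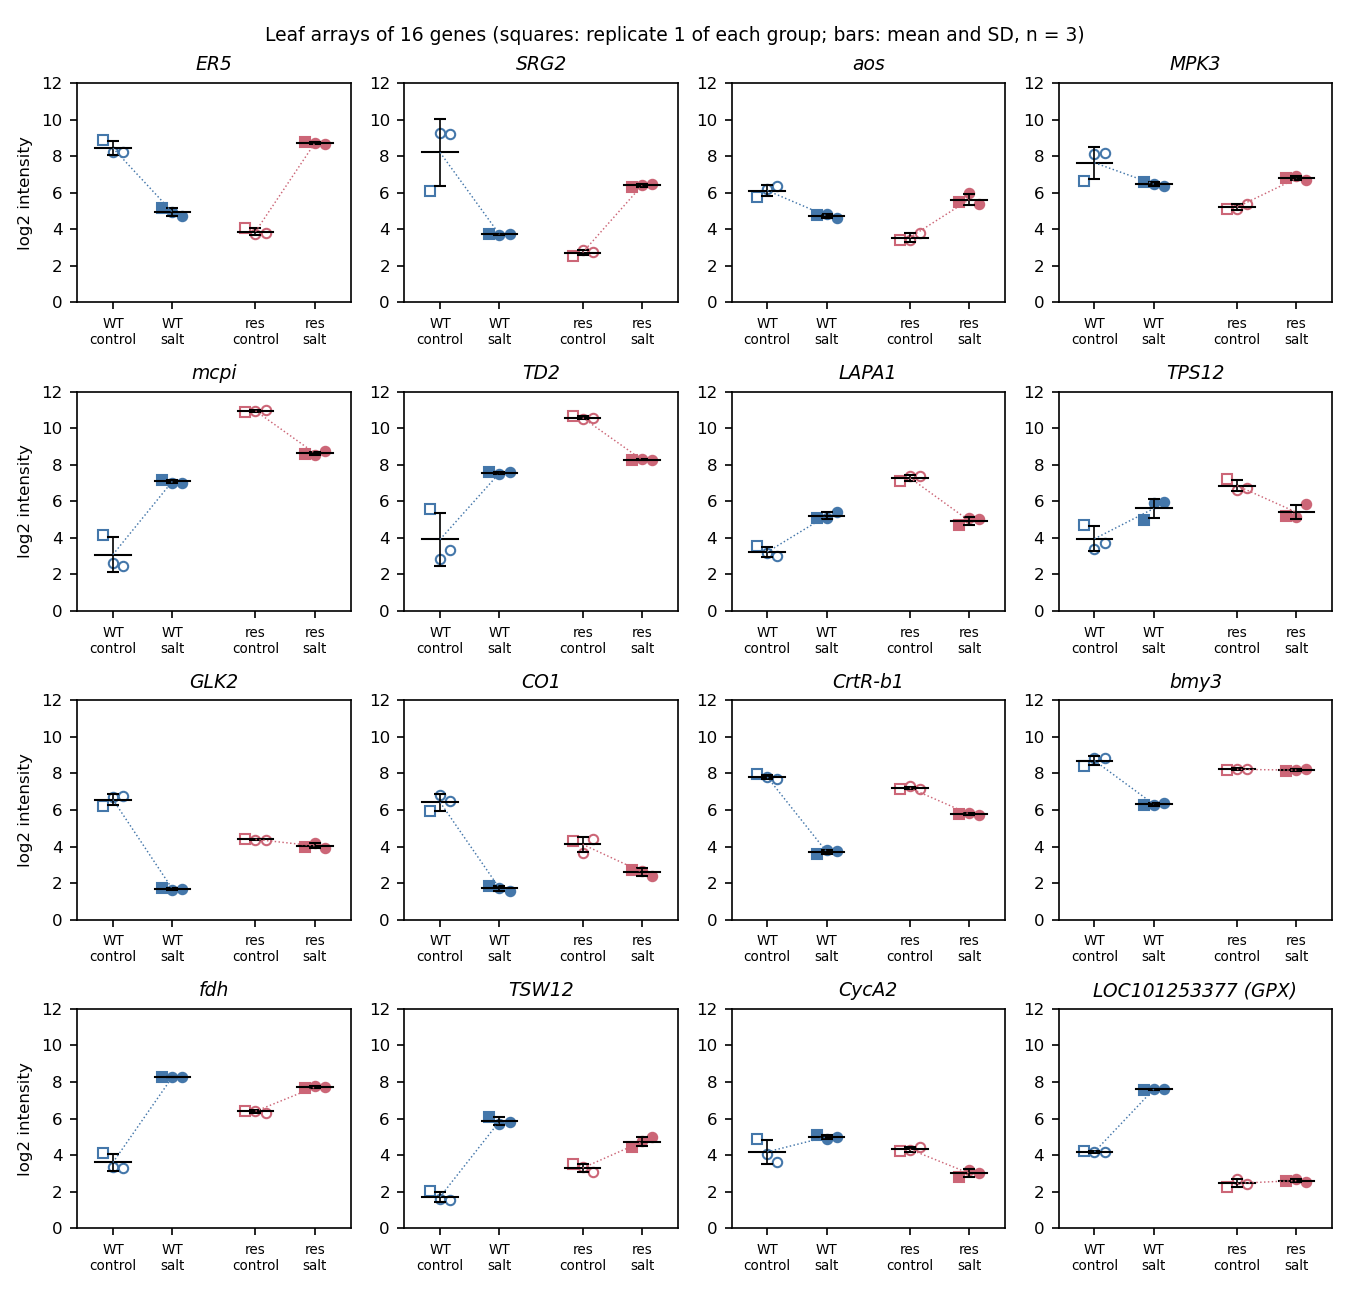
Log2 intensity (y axis) on each of the 12 leaf arrays for 16 genes, with WT in blue and *res* in red, open symbols for control and filled ones for salt, squares for replicate 1, and black bars for the mean and SD of 3 arrays. *ER5* to *MPK3* fell in WT and rose in *res*, *mcpi* to *TPS12* did the reverse, *GLK2* to *bmy3* were lowest in WT salt, *fdh*, *TSW12* and LOC101253377 were highest there, and *CycA2* was lowest in *res* salt.

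Of 20 genes of the ABA and dehydration list 9 rose with salt in WT, 5 rose in *res* and none fell. Negative interactions were called in 5 and positive ones in none, with a median of -0.4. Without WT control replicate 1 there were 5 negative calls and 1 positive call. *TSW12*, a lipid transfer protein induced by salt, read 2.04, 1.59 and 1.54 in WT control, 6.08, 5.68 and 5.79 in WT salt, 3.49, 3.33 and 3.09 in *res* control and 4.47, 4.78 and 4.97 in *res* salt. It started higher and ended lower in *res*, with rises of 17.5-fold in WT and 2.71-fold in *res* (interaction -2.7 ± 0.25, adjusted p = 2.45e-05, -2.85 without WT control replicate 1). *LE16*, a lipid transfer protein induced by drought, read 4.56, 4.56 and 5.05 in WT control, 9.53, 9.56 and 9.52 in WT salt, 7.24, 7.56 and 7.23 in *res* control and 10.45, 10.34 and 10.58 in *res* salt. Here *res* was above WT in both conditions and the interaction was -1.7 ± 0.2 (adjusted p = 0.000198, -1.62 without WT control replicate 1). *PP2C-2*, a protein phosphatase of the kind that holds back ABA signalling, rose 7.01-fold in WT and 2.62-fold in *res* (interaction -1.42 ± 0.21, adjusted p = 0.00126). *ABF4*, a transcription factor that binds ABA response elements, rose 3.13-fold in WT, while its change of 0.62 in *res* was not called (interaction -1.03 ± 0.15, adjusted p = 0.00108). The *ABF4* call was lost without WT control replicate 2, WT salt replicate 3, *res* control replicate 3 or *res* salt replicate 3. *ASR1*, a small protein induced by ABA, stress and ripening, completed the 5, rising 3.13-fold in WT (interaction -1.18 ± 0.24, adjusted p = 0.00963).

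The list of lipid transfer proteins, which carry lipids to the cell surface, shares *TSW12* and *LE16* with that list. It also shares *ARPI* with the list of wound-induced genes, so the calls of these genes were counted in both lists. Of 7 measured 4 were called negative and 1 positive, with a median of -1.7. A further member, LOC101266080, rose 15.1-fold in WT and 2.44-fold in *res* (interaction -2.63 ± 0.31, adjusted p = 0.000228). The positive member was *Dea1*, a protein of the same cysteine-rich family, which fell 8.77-fold in WT from a level 24.3-fold above *res* (interaction 2.33 ± 0.51, adjusted p = 0.0157). *fdh*, the formate dehydrogenase of mitochondria, read 4.13, 3.34 and 3.32 in WT control, 8.26, 8.26 and 8.29 in WT salt, 6.44, 6.44 and 6.32 in *res* control and 7.66, 7.78 and 7.71 in *res* salt, so that *res* control lay between WT control and WT salt (interaction -3.36 ± 0.25, adjusted p = 4.52e-06, -3.63 without WT control replicate 1). Within the list of 9 stress dehydrogenases and haemoglobins, 2 were called negative and 1 positive. *ADH2*, an alcohol dehydrogenase, rose 3.43-fold in WT and read between 1.06 and 1.48 on all *res* arrays (interaction -1.71 ± 0.22, adjusted p = 0.000421). The haemoglobin *Glb1* fell 19.8-fold in WT (interaction 2.85 ± 0.65, adjusted p = 0.0181), and its fall in *res* was not called. The interaction call was lost without *res* salt replicate 3.

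Regulators of chloroplasts and light responses included some of the steepest falls in WT. Of 14 light receptor and clock genes 4 were called positive and none negative, with a median of 0.15. The list holds no core clock genes such as *CCA1* or *GIGANTEA*, which were not analysed here. *GLK2*, a transcription factor that promotes chloroplast development, read 6.21, 6.71 and 6.79 in WT control, 1.74, 1.65 and 1.67 in WT salt, 4.43, 4.35 and 4.38 in *res* control and 3.97, 4.2 and 3.94 in *res* salt. Salt arrays of WT were the lowest by far, *res* arrays lay between the WT groups with a change of -0.35 that was not called, and *GLK2* fell 29.5-fold in WT to a level below the median of those arrays (interaction 4.53 ± 0.2, adjusted p = 6.06e-08, 4.71 without WT control replicate 1). *CO1*, a CONSTANS-type regulator linked to day length, read 5.92, 6.84 and 6.49 in WT control, 1.84, 1.72 and 1.58 in WT salt, 4.32, 3.66 and 4.39 in *res* control and 2.74, 2.69 and 2.38 in *res* salt. It fell 26-fold in WT and 2.86-fold in *res*, and the order of the genotypes turned between control and salt (interaction 3.18 ± 0.33, adjusted p = 6.58e-05, 3.43 without WT control replicate 1). *GLK1*, a close relative of *GLK2*, had changes of 0.85 in *res* and -0.49 in WT, neither called, and an interaction of 1.34 ± 0.18, adjusted p = 0.000584. *PHOT2*, a blue light receptor, had changes of 0.04 in *res* and -0.97 in WT (interaction 1.01 ± 0.12, adjusted p = 0.000278), and its call was lost in 5 of the 12 fits with 1 array left out (WT control replicate 2 or 3, WT salt replicate 3, *res* control replicate 3, *res* salt replicate 1). The other 10 were not called: *COP1* had 0.94, *HY5* 0.47, *AUREA* 0.25, *cul4* 0.04, *Cry1b* -0.03, *sp* -0.09, *PHOT1* -0.13, *DDB1* -0.23, *Det1* -0.36 and *phyA* -0.56. *COP1*, a repressor of light responses, passed the fold threshold without WT control replicate 1 (1.04).

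Carotenoids are photoprotective pigments and precursors of ABA. Of 27 carotenoid, isoprenoid and sterol genes 9 fell with salt in WT and 5 in *res*. For the interaction 6 were called positive and none negative, with 12 of the 27 values below 0 and a median of 0.18. All 6 had a called fall in WT, and 1 of them fell in *res* as well. *CrtR-b1*, a carotene hydroxylase, read 7.94, 7.78 and 7.69 in WT control, 3.6, 3.79 and 3.73 in WT salt, 7.15, 7.29 and 7.17 in *res* control and 5.78, 5.86 and 5.71 in *res* salt. It fell 17.1-fold in WT and 2.67-fold in *res*, with no overlap among the 4 groups (interaction 2.68 ± 0.14, adjusted p = 3.03e-07, 2.61 without WT control replicate 1). *Psy1* and *PSY2*, phytoene synthases at the first step of the pathway, fell 4.32-fold and 3.83-fold in WT (interactions 1.96 and 1.41). The lycopene cyclase *LCY1*, the cleavage dioxygenase *CCD1B* and *dxs*, the first enzyme of plastid isoprenoid synthesis, fell 4.31-fold, 2.49-fold and 2.07-fold in WT (interactions 1.12, 1.3 and 1.25). The changes of these last 5 genes in *res* ran from -0.98 to 0.2 and were not called. Among the remaining members *GGPS2* fell 3.25-fold in WT and 2.73-fold in *res*, with an interaction of 0.25 that was not called. Without WT control replicate 1 the same list had 6 positive and 3 negative calls.

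The genes of photosynthesis in the lists used here mostly lay near 0. Photosynthesis-related genes that the study reports as higher in *res* than in WT in salt leaves, such as *RCA1* and *AOX1A*, are not covered. Their identifiers were not paired with probe sets. Of 16 nuclear photosynthesis and carbon fixation genes 1 was called, *PSBO* of the oxygen-evolving complex, which fell 3.65-fold in WT and had a change of -0.37 in *res* (interaction 1.5 ± 0.32, adjusted p = 0.0124). A second gene was called without WT control replicate 3, WT salt replicate 3 or *res* salt replicate 1. None of the 28 plastid-encoded photosynthesis genes was called, with interactions from -0.21 to 0.11, and none of 25 other plastid-encoded genes, with interactions from -0.58 to 0.37.

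In the ethylene biosynthesis list 3 of 11 were called positive and none negative. *ACS1A* and *ACS6*, synthases of the ethylene precursor, fell 2.64-fold and 4.38-fold in WT (interactions 1.89 and 2.75), and *ACO4*, which makes ethylene from it, rose 2-fold in *res* (interaction 1.56 ± 0.21, adjusted p = 0.000653). The other *ACO4* probe set, of low signal, was not called. *ACS6* was called with all 12 arrays and without WT control replicate 1 (adjusted p = 0.0375 and 2.62e-07), and the call was lost when any other array was left out. None of 17 genes of ethylene perception was called. Their interactions ran from -1.09 to 0.34, although 8 rose with salt in WT and 3 in *res*, and 1 was called without WT control replicate 1 or 2, WT salt replicate 1 or *res* salt replicate 2. Besides *ER5*, *ER66* was called in the list of 7 ER genes (interaction 1.01 ± 0.15, adjusted p = 0.00133), with a salt change called in *res* alone. The *ER66* interaction call was lost without WT control replicate 2 or 3, WT salt replicate 3, *res* control replicate 2 or *res* salt replicate 2.

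Among 10 ERF, DREB and CBF transcription factors 3 were called positive and none negative, with 4 lower in *res* than in WT in control and none in salt. *ERF5*, an ethylene response factor, read 4.94, 6.55 and 6.69 in WT control, 5.3, 5.23 and 4.84 in WT salt, 3.34, 3.48 and 3.69 in *res* control and 6.15, 5.95 and 5.88 in *res* salt. It rose 5.61-fold in *res*, from below to above WT salt arrays (interaction 3.43 ± 0.5, adjusted p = 0.000937, 3.99 without WT control replicate 1). *DREB2* fell 5.11-fold in WT to levels that overlapped those of *res*, and *DREB3* had changes of 0.86 in *res* and -0.85 in WT (interactions 1.9 and 1.71). The cold-response factor *CBF1* read 1.52, 5.59 and 5.51 in WT control, 1.41, 1.33 and 1.44 in WT salt, 1.29, 1.14 and 1.22 in *res* control and 1.55, 1.64 and 1.91 in *res* salt. Its interaction of 3.3 ± 1.1, adjusted p = 0.112 was not called. Replicate 1 of WT control lay near WT salt and far from the other controls, and without that array the interaction was 4.64 with an adjusted p of 4.16e-09. Of 38 genes of calcium, MAP kinase and ion transport 4 were called positive and 1 negative. *CaM2* and *MPK3* were given above. *ACA10*, named after a calcium pump, read 7.48, 7.46 and 7.24 in WT control, 7.15, 7.19 and 7.03 in WT salt, 6.31, 6.54 and 6.42 in *res* control and 7.87, 8.05 and 8.01 in *res* salt, and its interaction was 1.82 ± 0.15 (adjusted p = 9.45e-06, 1.78 without WT control replicate 1). It rose 2.92-fold in *res*. *MAPK16* also rose in *res*, 2.07-fold (interaction 1.33 ± 0.23, adjusted p = 0.00302), and *MAPK8* rose 2.9-fold in WT and had the negative interaction (-1.36 ± 0.29, adjusted p = 0.0125).

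*PLDb2* and *DGK1* are named for being among the *res* alone calls with the smallest adjusted p. *PLDb2*, a phospholipase D that releases phosphatidic acid, read 6.27, 6.19 and 6.47 in WT control, 5.53, 5.48 and 5.32 in WT salt, 5.19, 5.27 and 5.11 in *res* control and 6.25, 6.27 and 6.2 in *res* salt. It rose 2.07-fold in *res*, while its change of -0.87 in WT stayed under 2-fold (interaction 1.92 ± 0.14, adjusted p = 4.93e-06). *DGK1*, a diacylglycerol kinase with the same product, rose 2.28-fold in *res* (interaction 2.13 ± 0.25, adjusted p = 0.00022). Of 16 receptor-like proteins and defence signalling genes 3 were called positive and 2 negative. LOC101259548, *SOBIR1*, a kinase that works with receptor-like proteins, read 6.12, 8.35 and 8.12 in WT control, 6.96, 6.83 and 6.77 in WT salt, 5.35, 5.49 and 4.98 in *res* control and 7.69, 7.84 and 7.74 in *res* salt. It rose 5.6-fold in *res* (interaction 3.16 ± 0.6, adjusted p = 0.00621, 3.87 without WT control replicate 1), and WT control replicate 1 lay below every WT salt array, apart from the other WT controls. *Ve2*, a receptor-like protein of Verticillium resistance, and *NML1* rose 2.14-fold and 2.49-fold in *res* (interactions 2.06 and 1.32). *SERK1*, a receptor-like kinase, rose 4.33-fold in WT (interaction -2.14 ± 0.5, adjusted p = 0.0222), a call lost in 7 of the 12 fits with 1 array left out (WT control replicate 3, WT salt replicate 1 or 2, *res* control or *res* salt replicate 1 or 3). *MLO1*, of the mildew susceptibility family, rose 2.98-fold in WT (interaction -1.16 ± 0.23, adjusted p = 0.00893), a call lost without WT control replicate 3, and the list had 3 calls without that array.

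Chaperone genes were called positive in 3 of 15 cases. *DNAJ*, a co-chaperone, read 6.32, 6.46 and 6.23 in WT control, 3.71, 3.44 and 3.36 in WT salt, 5.63, 5.23 and 5.19 in *res* control and 5.89, 6.18 and 5.8 in *res* salt, an interaction of 3.44 ± 0.21 (adjusted p = 9.55e-07, 3.45 without WT control replicate 1). It fell 7.13-fold in WT, to below every other array. *hsc70.3* and *HSP70*, chaperones of the 70 kDa class, rose 2.64-fold and 3.27-fold in *res* (interactions 1.63 and 1.01), of which *HSP70* was called with all arrays but in only 3 of the 12 fits with 1 array left out (those without WT control replicate 3, WT salt replicate 2 or *res* control replicate 3).

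Cell wall enzymes moved both ways. Of 36 xyloglucan, pectin and cellulose enzymes 4 were called positive and 8 negative. *tXET-B2*, a xyloglucan endotransglucosylase that cuts and rejoins wall polymers, read 4.52, 7.46 and 7.25 in WT control, 2.15, 1.6 and 2.28 in WT salt, 1.29, 1.28 and 1.29 in *res* control and 1.97, 2.54 and 2.15 in *res* salt. It fell 21.1-fold in WT, in which replicate 1 was the lowest control array, *res* control was below the median of its arrays and WT salt close to it, and its interaction was 5.34 ± 0.81 (adjusted p = 0.00131, 6.28 without WT control replicate 1). *tXET-B1* fell 9.71-fold in WT (interaction 3.78 ± 0.85, adjusted p = 0.0169, 4.8 without WT control replicate 1), *XTH9* fell 2.72-fold in WT and *XET2* fell 6.04-fold in WT and 2.35-fold in *res* (interactions 1.48 and 1.36). *PMEU1*, a pectin methylesterase, read 7.48, 7.02 and 7 in WT control, 10.03, 10.04 and 10.09 in WT salt, 6.64, 6.7 and 6.7 in *res* control and 6.99, 7.25 and 7.08 in *res* salt. It rose 7.4-fold in WT and had a change of 0.43 in *res* (interaction -2.46 ± 0.18, adjusted p = 4.46e-06, -2.61 without WT control replicate 1). The galactosidase *TBG2* rose 3.37-fold in WT, and the cellulase *Cel2* fell 4.78-fold in *res* against a change of -0.81 in WT (interactions -1.81 and -1.44). Both *Cel2* probe sets were called negative. *XTH6*, *Cel8*, *TBG3* and *TBG4* were negative as well, from -1.84 to -1.13. The salt change was called in WT alone for *Cel8* and *TBG4*, in *res* alone for *TBG3* and in both genotypes in the same direction for *XTH6*. The *XTH6* call held only in the 3 fits that left out a WT control array, and that of *TBG3* was lost without WT salt replicate 1, *res* control replicate 2 or *res* salt replicate 1. *XYL2*, a xylosidase, had changes of -0.99 in *res* and 0.63 in WT, neither called, and an interaction of -1.62 ± 0.16, adjusted p = 5.57e-05. Of 14 expansins, which loosen walls during growth, *exp18* and *EXP5* were called negative (interactions -1.58 and -1.39). For both, the salt change was called in neither genotype. Of the expansin values 11 were below 0, with a median of -0.36, and neither interaction call held with ordinary instead of moderated variances.

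Of 19 cell cycle and DNA replication genes 3 were called negative and none positive, 18 values were below 0 and the median was -0.37. In *res* 4 of them fell with salt and in WT none was called, while *res* was lower than WT in 1 in control and in 8 in salt. *cdkB2*, a kinase of mitotic entry, read 5.43, 3.97 and 3.6 in WT control, 5.24, 5.33 and 5.11 in WT salt, 3.82, 4.25 and 3.85 in *res* control and 2.57, 2.42 and 2.16 in *res* salt. Replicate 1 of WT control was level with WT salt while the others were lower, and the interaction was -2.48 ± 0.49 (adjusted p = 0.0082, -3.03 without WT control replicate 1). *CycA2*, an A-type cyclin, read 4.86, 4.07 and 3.6 in WT control, 5.1, 4.88 and 5.01 in WT salt, 4.21, 4.28 and 4.47 in *res* control and 2.79, 3.21 and 3.03 in *res* salt, an interaction of -2.13 ± 0.34 (adjusted p = 0.0021, -2.47 without WT control replicate 1). *CycA1* fell 3.03-fold in *res* (interaction -1.93 ± 0.4, adjusted p = 0.0113, -2.36 without WT control replicate 1). All *res* salt arrays of these 3 genes were the lowest of the 12. The list had 6 called members without WT control replicate 1 and 1, *CycA2*, with ordinary variances.

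**Figure D4:**
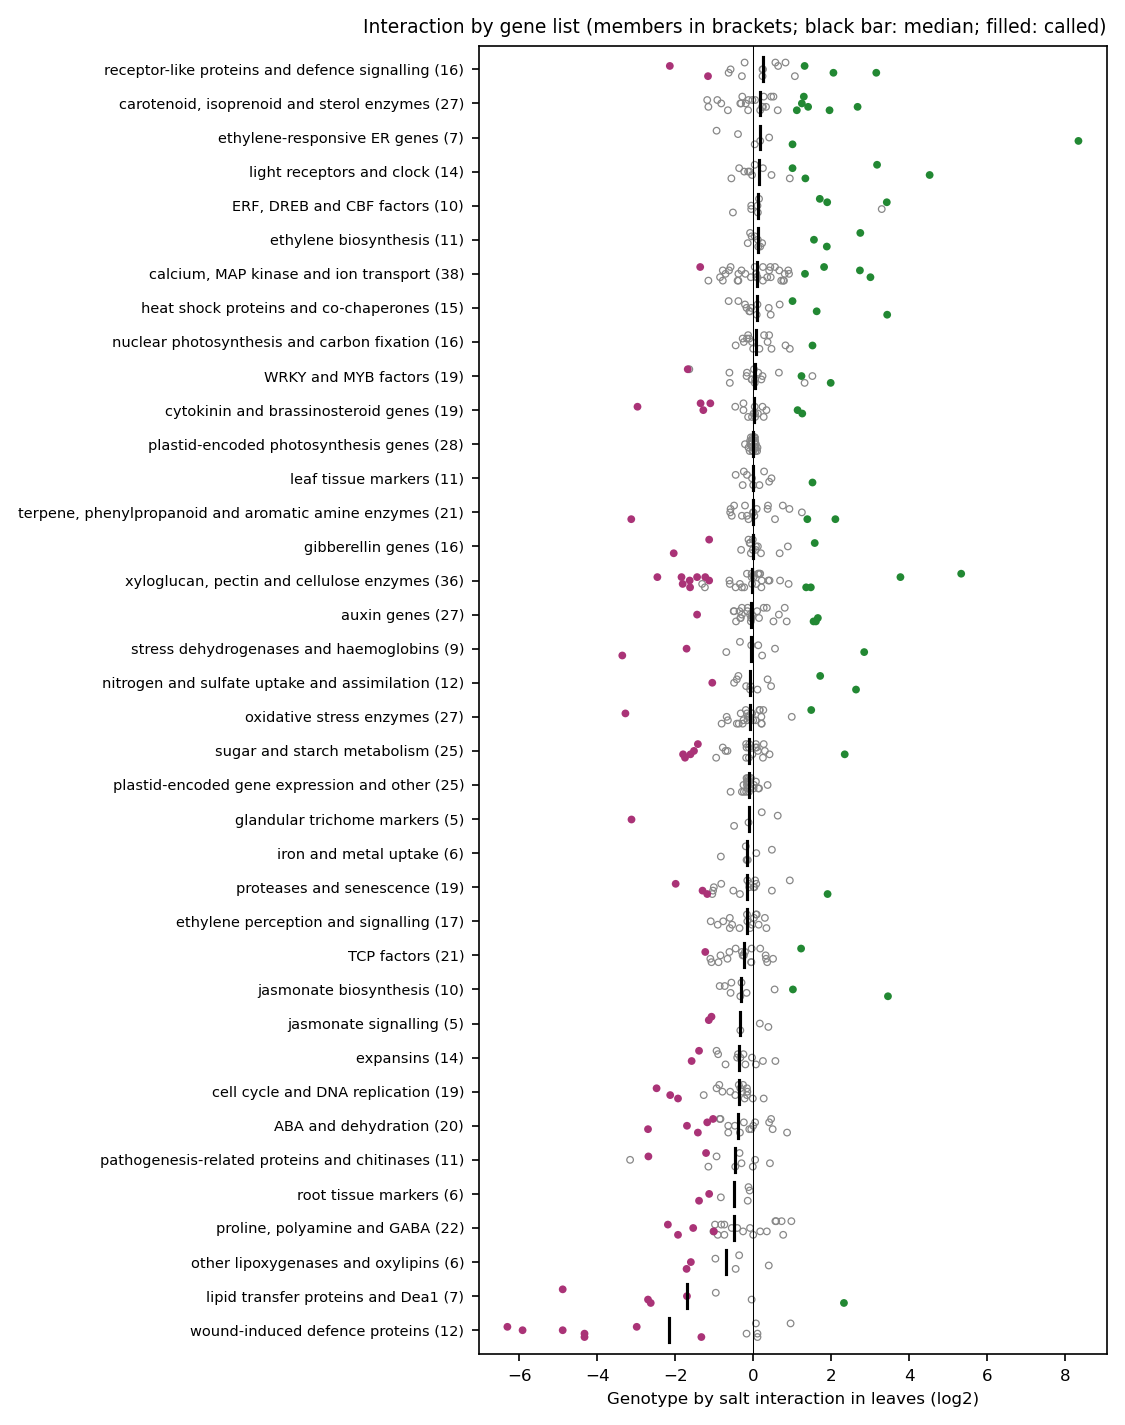
Interaction in leaves (x axis, log2) for the members of 38 gene lists (y axis, number of members in brackets), with filled green and purple points for called positive and negative genes, open points for genes not called and a black bar for the median of each list. Wound-induced defence proteins have the lowest median, -2.16, and the plastid-encoded photosynthesis genes lie within -0.21 and 0.11.

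For every sugar and starch gene with a called interaction, the salt change was called in WT and not in *res*. Of 25 sugar and starch genes 5 were called negative and 1 positive. The positive gene was *bmy3*, a beta-amylase, which read 8.42, 8.85 and 8.83 in WT control, 6.29, 6.26 and 6.39 in WT salt, 8.17, 8.26 and 8.24 in *res* control and 8.14, 8.17 and 8.23 in *res* salt. It fell 5.23-fold in WT, while *res* arrays of both conditions overlapped (interaction 2.35 ± 0.16, adjusted p = 2.81e-06, 2.48 without WT control replicate 1). *sus3*, a sucrose synthase, *ht3*, a hexose transporter, and *hxk1*, a hexokinase, rose 6.06-fold, 5.99-fold and 3.71-fold in WT, and their changes of 0.85, 0.78 and 0.37 in *res* were not called (interactions -1.75, -1.8 and -1.52). *HXK3* and LOC543961, a further sucrose synthase, rose 2.46-fold and 4.8-fold in WT (interactions -1.42 and -1.61).

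In nitrogen metabolism *AMT1-2*, an ammonium transporter, fell the furthest. *AMT1-2* read 9.41, 9.76 and 9.77 in WT control, 4.34, 4.32 and 3.94 in WT salt, 8.72, 8.8 and 8.64 in *res* control and 5.97, 6.13 and 5.67 in *res* salt. It fell 43.5-fold in WT and 6.96-fold in *res* (interaction 2.64 ± 0.21, adjusted p = 9.15e-06, 2.76 without WT control replicate 1), without overlap among the 4 groups. *AAP2*, an amino acid permease, fell 2.27-fold in WT (interaction 1.72 ± 0.21, adjusted p = 0.000302), and *nii1*, a nitrite reductase, fell more in *res* (5.78-fold) than in WT (2.8-fold, interaction -1.05 ± 0.18, adjusted p = 0.00313), a call lost without WT control replicate 1 or *res* salt replicate 1. These were the 3 calls among 12 genes. Of 22 genes of proline, polyamines and gamma-aminobutyrate (GABA) 4 were called negative and none positive, with a median of -0.48, and 7 negative and 1 positive without WT control replicate 1. *ODC*, the ornithine decarboxylase that feeds polyamine synthesis, read 7.25, 5.67 and 5.49 in WT control, 5.01, 4.42 and 4.98 in WT salt, 8.76, 9.03 and 8.91 in *res* control and 5.3, 5.69 and 5.14 in *res* salt. It fell 11.5-fold in *res*, from a control level far above WT, and 2.52-fold in WT (interaction -2.19 ± 0.52, adjusted p = 0.0224, -2.75 without WT control replicate 1). The spermine synthase *SPM1* fell 3.46-fold in *res*, and the spermidine synthase *SPDSY* had changes of -0.16 in *res* and 0.85 in WT (interactions -1.54 and -1.01). A glutamate decarboxylase, LOC544313, which makes GABA, rose 3.31-fold in WT (interaction -1.93 ± 0.21, adjusted p = 9.83e-05). The polyamine calls were fragile: *SPM1* lost its call in 11 of the 12 fits with 1 array left out (all but WT control replicate 1), *ODC* in 7 (WT control replicate 2, WT salt replicate 1 or 3, *res* control replicate 2 or 3, *res* salt replicate 1 or 3) and *SPDSY* in 5 (WT control replicate 3, WT salt replicate 1, *res* control replicate 3, *res* salt replicate 1 or 2). The list had 1 call without WT salt or *res* salt replicate 1, and 2 calls without WT control replicate 2 or 3, WT salt replicate 3, *res* control replicate 3 or *res* salt replicate 3.

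Among 27 oxidative stress enzymes 1 was called in each direction. LOC101253377, a glutathione peroxidase, read 4.23, 4.15 and 4.16 in WT control, 7.58, 7.64 and 7.61 in WT salt, 2.28, 2.7 and 2.4 in *res* control and 2.61, 2.68 and 2.54 in *res* salt. It rose 10.8-fold in WT, which set WT salt above all other arrays, and stayed lowest in *res* (interaction -3.28 ± 0.15, adjusted p = 1.16e-07, -3.31 without WT control replicate 1). *GGP1*, an enzyme of ascorbate synthesis, fell 2.27-fold in WT and had a change of 0.31 in *res* (interaction 1.49 ± 0.17, adjusted p = 0.000142). The list had 4 calls without WT control replicate 1. Of 11 pathogenesis-related proteins and chitinases *PR-5* and *TSI-1* were called negative, and 5 genes were called without WT control replicate 1. *PR-5*, a thaumatin-like protein, read 2.86, 4.44 and 3.66 in WT control, 6.45, 6.35 and 6.47 in WT salt, 6.74, 6.78 and 6.77 in *res* control and 6.81, 6.89 and 6.82 in *res* salt. It rose 6.81-fold in WT towards the level that *res* held in both conditions (interaction -2.69 ± 0.39, adjusted p = 0.000903, -2.29 without WT control replicate 1). *TSI-1* rose 2.44-fold in WT and had a change of 0.08 in *res* (interaction -1.21 ± 0.21, adjusted p = 0.00395). The chitinase *CHI9* read 2.74, 7.15 and 7.43 in WT control and had an interaction of -3.16 with and -1.64 without WT control replicate 1 (adjusted p = 0.194 and 1.01e-05). *CHI3*, also a chitinase, read 3.67, 8.21 and 8.09 there, and its interaction went from -0.3 to 1.19 without that array (adjusted p = 0.947 and 4.36e-05).

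Called genes were present in each of the lists of cytokinin and brassinosteroid, auxin, gibberellin and jasmonate signalling genes. Of 19 cytokinin and brassinosteroid genes 2 were positive and 4 negative. *det2*, a reductase of brassinosteroid synthesis, read 6.27, 3.82 and 4.09 in WT control, 5.7, 5.61 and 5.84 in WT salt, 6.83, 6.94 and 6.77 in *res* control and 4.88, 4.94 and 4.77 in *res* salt. It fell 3.97-fold in *res*, and WT control replicate 1 lay above WT salt while the other 2 lay below it (interaction -2.97 ± 0.64, adjusted p = 0.0141, -3.75 without WT control replicate 1). *LOG6*, which activates cytokinins, fell 2.61-fold in *res*, and the cytokinin oxidase *CKX2* and the isopentenyltransferase *IPT4* fell 2.82-fold and 2.19-fold in WT (interactions -1.1, 1.26 and 1.14). A further cytokinin oxidase, *CKX4*, fell 4.14-fold in *res*, and *CYP85A1*, of brassinosteroid synthesis, rose 4.64-fold in WT (interactions -1.28 and -1.35). Of these calls, that of *CYP85A1* held in only 2 of the 12 fits with 1 array left out (those without WT control replicate 1 or *res* salt replicate 2), and that of *CKX4* was lost without *res* control replicate 1. Of 27 auxin genes 3 were positive and 1 negative: the repressor *IAA7* fell 4.93-fold in WT, the response factor *ARF24* rose 3.27-fold in *res*, *ARF1* rose 2.55-fold in WT and *IAA3* had changes of 0.64 in *res* and -0.97 in WT (interactions 1.66, 1.55, -1.44 and 1.61). Of 16 gibberellin genes *GA2ox3*, which inactivates gibberellins, fell 3.01-fold in WT (interaction 1.58 ± 0.24, adjusted p = 0.00117), and LOC101248254, the gibberellin-stimulated *gast1*, fell 2.32-fold in *res* against a change of 0.82 in WT (interaction -2.04 ± 0.15, adjusted p = 5.12e-06). The related *RSI-1* had an interaction of -1.13, with a salt change called in neither genotype, and the interaction call was lost without WT control replicate 3. In jasmonate signalling 2 of 5 were called negative: *JA2*, a NAC factor, rose 4.28-fold in WT, and *LEJA1* fell 2.67-fold in *res* (interactions -1.14 and -1.07). The *JA2* call held in only 2 of the 12 fits with 1 array left out (those without WT control replicate 2 or 3), and that of *LEJA1* was lost without *res* control or *res* salt replicate 1.

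Transcription factors and proteases completed the lists. Of 19 WRKY and MYB factors 2 were positive and 1 negative (6 called without WT control replicate 1). LOC101263542, with the RefSeq synonyms *SlWRKY4* and *SlWRKY23*, fell 4.5-fold in WT, as did the MYB factor *THM6*, 3.51-fold, and *WRKYIIe-1* rose 2.81-fold in WT (interactions 1.99, 1.24 and -1.68). Of 21 TCP factors, which govern leaf growth, *TCP6* fell 2.29-fold and *TCP12* rose 2.72-fold in WT (interactions 1.23 and -1.23, 4 called without WT control replicate 1). The *TCP24* probe set that was used had -0.89 and was not called, while its other probe set, of lower signal, was called at -1.21. Of 19 genes of proteases and senescence 1 was positive and 3 negative, and 9 were called without WT control replicate 1. *P69A*, a subtilisin-like protease, rose 3.31-fold in WT, and *VPE5*, a vacuolar processing enzyme, and *CYP1* rose in both genotypes, 9.54-fold and 5.36-fold in WT and 3.86-fold and 2.37-fold in *res* (interactions -1.99, -1.3 and -1.18). Of the 3 *VPE5* probe sets the brightest is given, and the others, of low signal, were not called. The NAC factor *NAC1* fell 5.57-fold in WT (interaction 1.91 ± 0.46, adjusted p = 0.0244), a call that was lost in 10 of the 12 fits with 1 array left out and held without WT control replicate 1 or *res* salt replicate 1. Of 21 terpene, phenylpropanoid and aromatic amine enzymes *TPS12* was negative and the decarboxylase *AADC1A* and *Eli3* positive (interactions 2.11 and 1.39). For *Eli3* the salt change was called in neither genotype. *AADC1A* fell 2.11-fold in WT, and its rise in *res* was not called. The interaction call was lost without WT control replicate 3, WT salt replicate 2, *res* control replicate 1 or 3 or *res* salt replicate 3. *CIP1*, known here by its symbol, read 9.34, 9.71 and 9.62 in WT control, 7.31, 7.43 and 7.29 in WT salt, 9.25, 9.39 and 9.27 in *res* control and 9.3, 9.34 and 9.34 in *res* salt, with only WT salt low (interaction 2.23 ± 0.15, adjusted p = 2.19e-06). LOC101268869, with the RefSeq synonym *EH2*, rose 2.85-fold in WT, LOC543912, an aminodeoxychorismate synthase of folate synthesis, fell 5.83-fold in WT and 2.45-fold in *res*, and LOC101267799, with the synonym *ST2.1*, rose 3.21-fold in *res* (interactions -1.97, 1.25 and 1.49). None of 6 iron and metal uptake genes was called in leaves.

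Roots are the tissue in which the same contrast was measured on other arrays. There 2505 probe sets were called (3.69%). Replicate 3 of WT salt roots stood apart: 1399 probe sets differed more than 2-fold from the average of the other arrays of its group. Replicates 1 and 2 of that group had 518 and 368, and the remaining root arrays had 58 to 142. WT salt enters every root interaction, and no root array was left out in any fit. Of the 2792 leaf DEGs, 161 (5.77%, or 6.43% of the root DEGs) were also called in roots with the same sign and 328 (11.7%, or 13.1%) with the opposite sign. The difference between the leaf and the root interaction, fitted on all 24 arrays, was called in 5264 probe sets (7.76%), and in 2143 (76.8%) of the leaf DEGs, whose choice by the leaf values favours such a difference. *mcpi* and *TD2* had root interactions of 4.22 and 4.3, against -6.31 and -5.92 in leaves, and the differences were -10.54 ± 0.74 (adjusted p = 2.01e-09) and -10.22 ± 0.84 (adjusted p = 1.99e-08). *ER5* had -2.19 in roots and *tXET-B2* had -2.86, again opposite to leaves. *fdh* had the same sign in both tissues, -3.36 in leaves and -2.64 in roots, and a difference of -0.72 ± 0.3 (adjusted p = 0.171). *GLK2*, *CO1* and *CrtR-b1* had root interactions of 0.28, -0.28 and 0.11, and the differences were called (adjusted p = 9.22e-11, 9.22e-05 and 0.000414). *JA2* and *TSI-1* were more negative in roots (-3.79 and -4.51) than in leaves (adjusted p of the difference = 6.48e-05 and 8.94e-09).

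**Figure D5:**
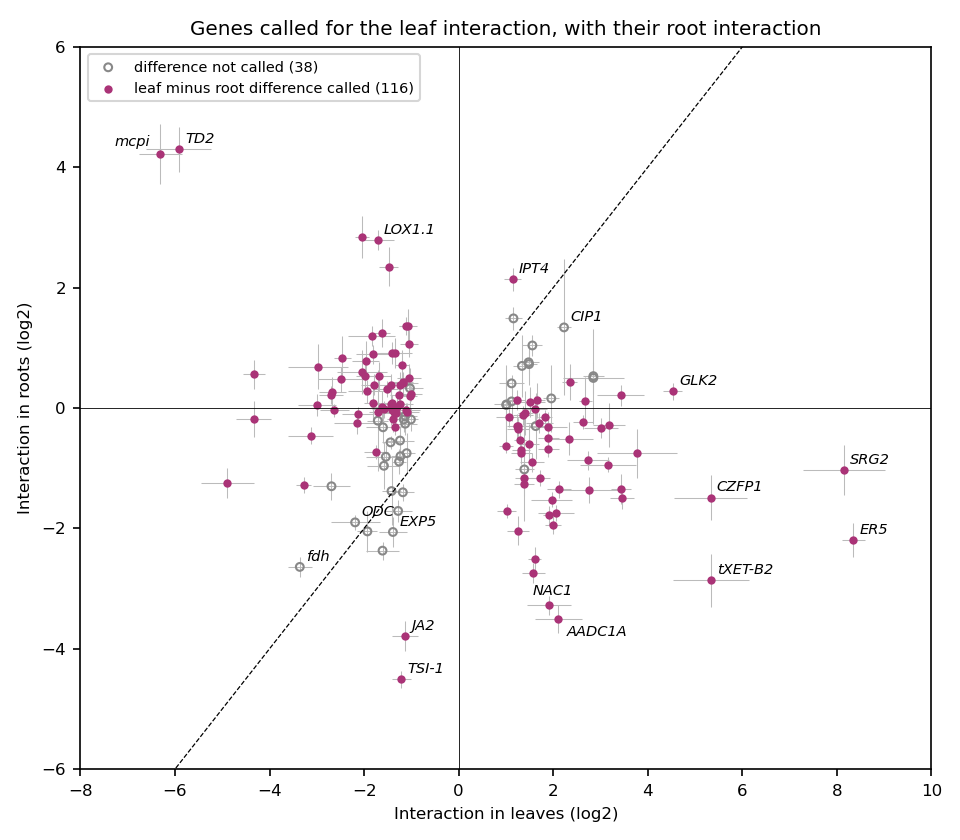
Interaction in leaves (x axis, log2) and in roots (y axis, log2) for the 154 genes called in leaves that have a symbol or a RefSeq synonym, with SE bars (3 arrays per group) and filled points where the difference between the tissues was called (116 genes). *mcpi* and *TD2* stand at the upper left and *ER5* and *tXET-B2* at the lower right, with opposite signs in the tissues, while *fdh* lies near the dashed line of equality.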

How the data were processed

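RNA of tomato leaflets and roots was hybridised to 24 one-colour GeneChip arrays, 3 per group. Per the labels and the study's methods the authors summarised intensities by robust multi-array averaging (RMA), which corrects background, quantile-normalizes all arrays together and takes log2, and the deposited log2 values were used as given. Aligning whole distributions can shift small differences where many transcripts move 1 way. Versions of the upstream software were not given in the sources used here, and the authors' own tests were left aside. Columns of no sample numbered 0.

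Leaf values were fitted with limma 3.58.1 in R 4.3.3 over 4 group means, with Benjamini-Hochberg adjustment over 67795 probe sets, and tables were made in Python 3.11.15 with pandas 2.3.3. A call needed an adjusted p under 0.05 and at least 2-fold. A ± after an interaction is its standard error from that fit. Folds are 2 to the power of the log2 difference. The code was tested on simulated data. All 24 arrays entered the test of leaf against root. Probe sets were named through the platform annotation, 1 probe set per gene (highest mean), and through RefSeq synonyms, and identifiers of other gene models were not paired with them. Genes named were the 8 largest called interactions in each direction without overlap of salt changes, the 4 smallest adjusted p of each class and list, all light and clock genes, 5 described LOC numbers in each direction and further called list members. *CBF1*, *CHI3* and *CHI9* were chosen after their values were seen. Members and lists were chosen with earlier results of these data known. Alternatives were quantile normalization within leaves, a filter on dim probe sets, 1 probe set per gene, other variance models and a replicate block. Each leaf array, but no root array, was also left out in turn. No pairing of arrays by replicate number was seen: deviations from group means of same-numbered arrays correlated between -0.103 and 0.101 over 18 pairs, and 1 was over 0.1.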

Additional observations from a re-analysis of the deposited data

Results flagged for a closer look

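The salt response differed between the genotypes by the test of the difference itself in 2792 probe sets, as described above.

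For 24 named genes the interaction was called in leaves and in roots with opposite sign, and the difference between the tissues was called too. A further 6 genes that met the criterion (*GRAS2*, *Rab1A*, *WLK*, *Wfi1*, *cuAO* and *st3*) fall outside the rule for named genes. These genes were found by that criterion, so the values are descriptions. The leaf interaction exceeded the root interaction by 10.53 for *ER5*, 8.2 for *tXET-B2*, 6.82 for *CZFP1*, 5.63 for *AADC1A* and 5.19 for *NAC1* on the log2 scale. The difference was 4.95 for *aos*, 4.79 for *DNAJ*, 4.32 for *GA2ox3*, 4.12 for *ACS6*, 3.93 for LOC101263542 and 3.8 for *Ve2*. Smaller positive differences were 3.7 for *PLDb2*, 3.48 for *DGK1*, 3.3 for *CKX2*, 2.88 for *AAP2* and 2.73 for *loxD*. In the other direction the difference was -10.54 for *mcpi*, -10.22 for *TD2*, -4.88 for LOC101248254 (*gast1*) and -4.5 for *LOX1.1*. It was -3.03 for *XTH6*, -2.86 for *XYL2*, -2.43 for *LEJA1* and -2.12 for *nii1*. The adjusted p of these differences was at most 0.00121 (*ACS6*) by limma over all probe sets.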

How the results depend on the processing

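Leaving out 1 leaf array at a time gave 2404 to 4569 probe sets called for the interaction (988 to 1726 positive, 1354 to 2843 negative). Changes in opposite directions then numbered 64 to 230, changes in *res* alone 304 to 684 and in WT alone 1387 to 2470, in each case with the highest value without WT control replicate 1, and the leaf against root difference was called in 4810 to 7148. Leaving out that array and normalizing the remaining leaf arrays to 1 distribution, an alternative chosen after seeing the data, gave 4389 calls (1988 positive), 243 in opposite directions and 664 in *res* alone. With ordinary instead of moderated variances there were 55 in opposite directions and 225 in *res* alone. Without a minimum fold 4565 probe sets were called, and at an adjusted p under 0.01 with at least 2-fold 2020 were. The cause of these differences was not tested, other than that each of the last settings changes the threshold itself. With the replicate number as a block there were 2738 calls (1102 positive), and 5138 for leaf against root. No pairing by replicate number was seen (13 of 36 comparisons of an array with another group correlated best with its own number). These correlations over all probe sets cannot exclude an effect shared by part of them. Among named genes the block ended the calls of *HSP70* and *XTH6*. Of 122 called genes named, 24 lost the call in at least 1 of the 12 fits with 1 array left out, as given above. Quantile normalization within leaves ended 9 calls (*CYP85A1*, *HSP70*, *JA2*, *LEJA1*, *LOG6*, *SPM1*, *TBG3*, *XTH6* and *nii1*), and the fit on all 24 arrays ended 6 (*ADH2*, *CIP1*, *Eli3*, *HSP70*, *PHOT2* and *PP2C-2*). Ordinary variances ended 29: *AADC1A*, *ACS1A*, *ACS6*, *CKX4*, *CYP85A1*, *CycA1*, *Dea1*, *EXP5*, *Glb1*, *HSP70*, *JA2*, LOC101259548, LOC543961, *LOX1.1*, *MAPK8*, *NAC1*, *ODC*, *PIIF*, *PSBO*, *RSI-1*, *SERK1*, *SPM1*, *TBG3*, *XTH6*, *cdkB2*, *det2*, *exp18*, *loxC* and *tXET-B1*. The cell cycle list then had 1 call, and the calls among expansins and other lipoxygenases were lost. A variance trend with robust moderation ended 3 calls (*ACS6*, *SPM1* and *XTH6*). The filter on dim probe sets removed *TSI-1* before the fit, so its call was not tested there, and ended none of the other 121 calls. The fit on 1 probe set per gene ended none. Only *CHI3* reversed: leaving out 1 array gave it -1.08 to 1.19, the latter without WT control replicate 1. With 3 arrays per group and 1 deviating control, precision is limited, and values near the array medians have no detection call.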
